A study of Homo sapiens with 34 samples.

Results

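The genes examined were the zinc finger genes of human chromosome 19. They are the GENCODE 44 protein-coding genes of that chromosome whose symbol is ZNF followed by digits only. There were 240 such genes among 1476 protein-coding genes of the chromosome and 19970 protein-coding genes on chromosomes 1 to 22 and X, and the rule uses no measured value, though it was set with earlier results of these data known. For comparison, the other 1236 protein-coding genes of chromosome 19 and the 236 genes with such symbols on other chromosomes were counted in the same way. The 1236 other genes still hold 6 symbols with a letter after the digits and 3 read-through symbols. They include 32 genes whose protein matches the KRAB A-box.

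The binding of 2 transcription factors had been mapped in MB157 and MB157R cells with ChIP-seq, the sequencing of DNA recovered with an antibody from fixed chromatin. MB157 is a triple-negative breast cancer line whose growth depends on a NOTCH1 receptor that lacks the extracellular part. MB157R cells were derived from it by 25 weeks in 1 µM of the γ-secretase inhibitor LY3039478, which blocks release of the NOTCH intracellular domain, and they are 1 resistant line. The sources used here do not say whether the inhibitor was present during the 72 h induction below. All cells carried a lentiviral vector that was switched on with 1 µg/ml doxycycline for 72 h. It was empty (iEV, in both lines), or it carried SOX2 with an HA tag in MB157 (iSOX2) or NOTCH1 without the extracellular part in MB157R (iN1-ICD). Antibodies were directed against RBPJ, SOX2 or the HA tag. The 22 immunoprecipitated libraries form 8 groups of 3, except for the HA control in MB157 iEV cells, which has 1, and 12 inputs form 4 groups. The libraries of each group had been merged before peak calling. A group therefore has 1 list, and no spread between replicates can be given. The intervals below are exact binomial 95% intervals and cover counting error only.

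Most of these genes encode proteins that begin with a KRAB domain, which recruits the corepressor TRIM28 and with it enzymes that methylate histones and DNA. The row of zinc fingers behind it reads a DNA sequence, and many of the family bind transposable elements and keep them silent. The genes arose by repeated tandem duplication and lie side by side on chromosome 19. The NOTCH intracellular domain acts on genes through the DNA-binding protein RBPJ, which can hold corepressors in its absence. SOX2 is known from pluripotent and neural stem cells, whose gene programmes it maintains.

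Of the 240 genes, 201 encoded a KRAB A-box (at least 9 of its 11 fixed positions matched in the translated canonical transcript) and 3 a SCAN domain. The number of fingers ranged from 1 to 36 with a median of 12. Where neighbouring transcription start sites (TSSs) more than 500 kb apart were taken as a break, 228 genes fell into 10 clusters of at least 5 genes and 12 lay outside. Cluster 10, which spans 1.28 Mb next to the end of the long arm from ZNF264 to ZNF446, held 41 genes. Cluster 8 held 39, cluster 4, next to the centromere on the short arm, 37, and clusters 1 and 5 held 5 each. The median distance between neighbouring TSSs was 44.1 kb.

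The bases just upstream of the TSS are shown for the 4 genes with the highest RBPJ fold, because in 3 of them a searched RBPJ motif lies in these bases. All are on the minus strand of hg38 and are written 5′ to 3′ in the direction of the gene, so that the last base adjoins the TSS. They span chr19:11505840-11506089 for ZNF653, chr19:23687221-23687470 for ZNF675, chr19:57947707-57947956 for ZNF256 and chr19:12401272-12401521 for ZNF799. Capitals mark the matches to the RBPJ, NRF1 and ETS motifs that are spelled out below.
ZNF653: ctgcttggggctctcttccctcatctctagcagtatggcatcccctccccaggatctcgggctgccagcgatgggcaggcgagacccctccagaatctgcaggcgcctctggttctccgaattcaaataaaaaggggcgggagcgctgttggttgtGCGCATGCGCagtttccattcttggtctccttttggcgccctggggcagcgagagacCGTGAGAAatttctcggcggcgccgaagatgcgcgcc
ZNF675: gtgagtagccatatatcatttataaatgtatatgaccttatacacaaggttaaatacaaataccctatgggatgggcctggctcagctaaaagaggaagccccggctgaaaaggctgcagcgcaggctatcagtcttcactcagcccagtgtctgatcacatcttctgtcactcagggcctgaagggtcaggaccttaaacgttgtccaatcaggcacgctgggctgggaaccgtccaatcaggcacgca
ZNF256: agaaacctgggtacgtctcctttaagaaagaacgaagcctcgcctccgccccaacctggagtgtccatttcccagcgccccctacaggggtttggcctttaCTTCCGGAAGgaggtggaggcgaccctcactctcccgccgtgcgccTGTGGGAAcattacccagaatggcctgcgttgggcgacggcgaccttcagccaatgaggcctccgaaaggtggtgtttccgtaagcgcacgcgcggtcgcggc
ZNF799: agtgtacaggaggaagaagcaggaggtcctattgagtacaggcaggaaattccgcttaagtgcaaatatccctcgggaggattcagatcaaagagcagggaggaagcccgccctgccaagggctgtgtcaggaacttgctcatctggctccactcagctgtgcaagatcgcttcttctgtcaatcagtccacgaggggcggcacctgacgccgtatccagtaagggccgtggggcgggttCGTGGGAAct
In ZNF653 the RBPJ match CGTGAGAA begins 37 bases before the TSS, behind overlapping NRF1 matches. In ZNF256 the match TGTGGGAA begins 103 bases before it, downstream of an ETS match on both strands. In ZNF799 the match CGTGGGAA begins 10 bases before it. CCAAT boxes were not capitalised, and apart from these ZNF675 has none of the searched motifs in this stretch. A match is a description of the letters and not a measured site.

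A gene was counted as bound in a list when the summit of a peak lay within 1 kb of its TSS. RBPJ was found at 53.3% (46.8 to 59.8) of the chromosome 19 ZNF genes in MB157 iEV cells, 128 of 240. This compares with 37.1% of the other chromosome 19 genes and 38.0% of all protein-coding genes. In MB157 iSOX2 cells RBPJ was at 174 of them, 72.5% (66.4 to 78.0), against 48.9% of the other genes and 50.4% of all genes. The intervals of the ZNF genes and the other chromosome 19 genes do not overlap in either list.

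In the resistant line the shares were also higher among the ZNF genes. RBPJ was at 164 genes in MB157R iEV cells, 68.3% (62.0 to 74.2), against 53.0% of the other chromosome 19 genes and 56.1% of all genes. In MB157R iN1-ICD cells it was at 118, 49.2% (42.7 to 55.7), against 40.1% (37.4 to 42.9) and 43.0%. This last difference is the smallest of the 4, and its 2 intervals overlap between 42.7% and 42.9%. ZNF genes of other chromosomes had shares between 55.1% and 75% in the 4 RBPJ lists, so a raised share was not seen on chromosome 19 alone.

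SOX2 was at 67 of the 240 genes in MB157R iEV cells, 27.9% (22.3 to 34.1), against 16.1% of the other chromosome 19 genes and 21.8% of all genes. The HA antibody found the induced HA-SOX2 at 134 genes in MB157 iSOX2 cells, 55.8% (49.3 to 62.2), against 23.4% and 34.0%. ZNF genes of other chromosomes had 34.3% for SOX2 and 58.9% for HA-SOX2 in these 2 lists, so these raised shares were not seen on chromosome 19 alone. At full list length HA-SOX2 shows the widest gap of the 8 lists, in percentage points, between the ZNF genes and the other genes of the chromosome. With lists of equal length, described below, this gap is the narrowest of the 6 main lists. Both shares are then low, 2.50% and 1.29%, so a wide gap was not possible there. None of the 240 genes had a summit in the SOX2 list of MB157R iN1-ICD cells, which holds 323 peaks. The shares there were 0.162% of the other chromosome 19 genes and 0.0751% of all genes. None had one in the HA control list of MB157 iEV cells either, which holds 77 peaks, with 0.0809% and 0.0801% in the other sets. For a count of 0 of 240 the exact upper limit is 1.53%, and a floor of 3 counts stands for 1.25%.

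**Figure D1:**
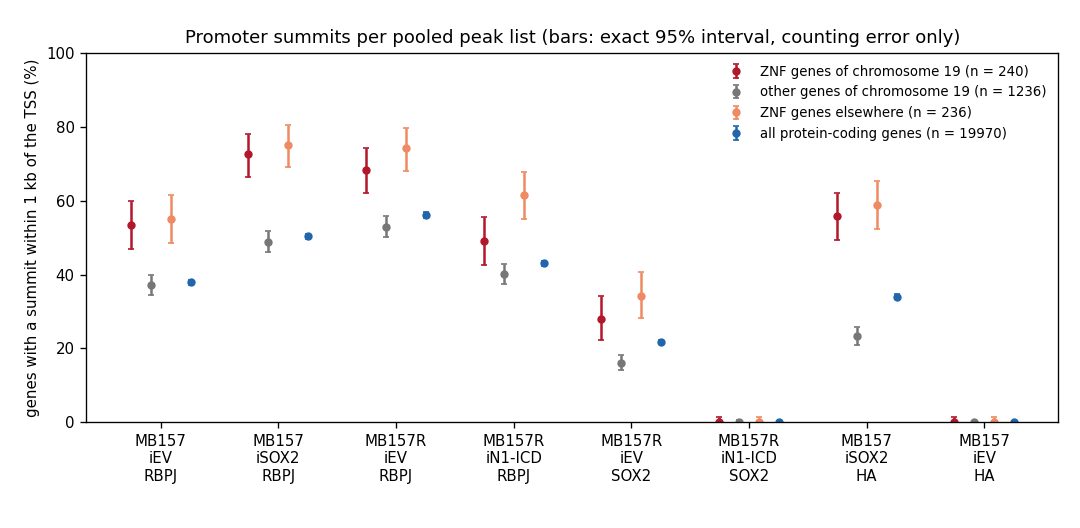
Share of genes with a peak summit within 1 kb of the TSS in each of the 8 pooled peak lists, for 4 sets of genes, with exact 95% binomial intervals (counting error only). In 6 lists the ZNF genes of chromosome 19 lie above the other genes of the chromosome, from 49.2% against 40.1% to 55.8% against 23.4%, and in the other 2 lists they are at 0.

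The lists differ in length. The 4 RBPJ lists held 25243, 34521, 46601 and 37297 peaks in the order given above, and the SOX2 and HA-SOX2 lists 37963 and 108203. When these 6 lists were cut to the length of the shortest, the RBPJ shares of ZNF genes became 53.3% and 65.4% (MB157 iEV and iSOX2) and 48.3% and 34.2% (MB157R iEV and iN1-ICD). The order of the 2 iEV lists thereby turned, while the other chromosome 19 genes had 37.1% in MB157 iEV and 37.5% in MB157R iEV. For HA-SOX2 the share fell from 55.8% to 2.50%, 6 of 240 genes, against 1.29% of the other chromosome 19 genes, so nearly all of its summits at these genes are outside the strongest peaks of that list.

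The strength of the summits was ordinary. The fold is the authors' enrichment at the summit over the expected background. At the bound ZNF genes its median was 4.92, 4.93, 6.34 and 4.99 in the 4 RBPJ lists, beside 4.91, 4.66, 6.12 and 5.25 at the other bound genes of the chromosome. The highest fold at a ZNF gene was 27.0, against 47.4 at another gene of the chromosome in the same list. For HA-SOX2 the medians were 4.35 and 3.81. Between 15 and 24 fragments lay at the median summit of these genes, as recovered from the deposited values.

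Across the 4 RBPJ lists, 74 ZNF genes were bound in all 4, 30.8% (25.1 to 37.1), against 21.9% of the other chromosome 19 genes. Of all protein-coding genes 25.7% were, which lies inside this interval. No RBPJ summit was found at 40 ZNF genes, 16.7%, against 35.7% of the other chromosome 19 genes and 34.9% of all genes. No summit in any of the 8 lists was found at 37, 15.4%, against 34.4% and 32.1%. Bound in both MB157 lists and in neither MB157R list were 25 genes, 10.4% (6.86 to 15), against 3.72% of the other genes. The opposite pattern was found at 14 genes, 5.83% (3.23 to 9.59), against 5.34%. The ZNF genes therefore exceeded the rest of the chromosome in the first of these patterns, while the second was about as frequent in both sets.

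**Figure D2:**
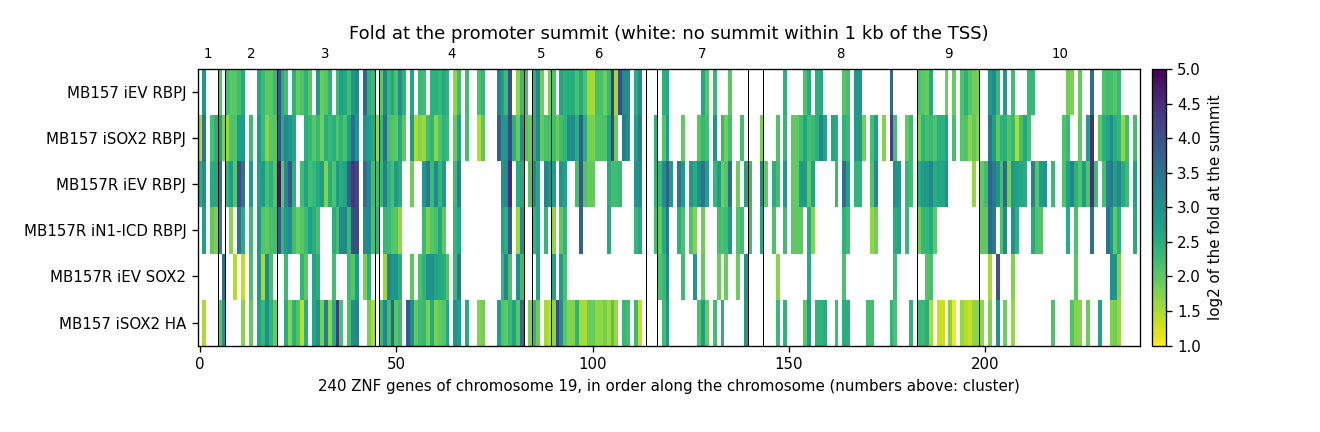
Log2 of the fold at the promoter summit for each of the 240 ZNF genes, in their order along chromosome 19, in the 6 lists with summits at these genes. White marks genes without a summit within 1 kb of the TSS, black lines separate clusters, and the numbers above are the 10 clusters. The genes of cluster 6 are filled in the MB157 rows, where 87.5% are bound, and sparse in the MB157R iN1-ICD row, where 29.2% are bound.

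ZNF653, a zinc finger gene without KRAB box known as a repressor of the nuclear receptor NR5A1, had the highest RBPJ fold of all. The MB157 iEV and iSOX2 lists gave 15.5 and 16.1, and the MB157R iEV and iN1-ICD lists 27.0 and 15.3. The summits were at -37, -28, -37 and -42 bases from the TSS (negative is upstream), at the RBPJ match shown above. At its summit in MB157R iEV 95 fragments were counted (76.9 to 116). No SOX2 or HA-SOX2 summit lay within 1 kb. The protein-coding gene ENSG00000267477 also starts within 1 kb of this TSS, so the RBPJ summits cannot be assigned to ZNF653 alone.

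ZNF675, a KRAB gene of cluster 4 whose protein was described as an inhibitor of TRAF6 signalling, had RBPJ folds of 16.3, 18.0, 22.3 and 15 in the same order. Its summits lay 211 to 269 bases downstream of the TSS, outside the bases printed above. SOX2 in MB157R iEV and HA-SOX2 in MB157 iSOX2 had summits 100 and 57 bases downstream, with lower folds of 4.44 and 4.90. ZNF256 of cluster 10 had RBPJ folds of 12.1, 21.4, 21.6 and 11.3, with summits between -112 and -105 bases, next to its RBPJ match. Neither SOX2 list had a summit there. These genes were high in all 4 RBPJ lists.

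ZNF799 and ZNF443, neighbours in cluster 3, differed more between the lines. ZNF799 had RBPJ folds of 7.44 and 11.8 in the MB157 lists and 20.8 and 16.7 in the MB157R lists. For ZNF443 they were 8.39 and 7.45, then 17.7 and 17.4. ZNF699 of cluster 2 ran from 4.67 and 6.80 to 17.8 and 10.7. In all 3, both MB157R folds exceed both MB157 folds. All 3 were named for a fold among the 5 highest of an MB157R list, so this direction was partly set by that choice. At ZNF443 the summit held 28 fragments (18.6 to 40.5) in MB157 iEV and 70 (54.6 to 88.4) in MB157R iEV. The protein-coding gene ENSG00000268870 also starts within 1 kb of the TSS of ZNF443.

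The opposite was seen in cluster 6. ZNF875, the gene first named HKR1, had RBPJ folds of 20.2 in MB157 iEV and 18.2 in MB157 iSOX2, 4.61 in MB157R iEV and no summit in MB157R iN1-ICD. ZNF570 had 17.5 in MB157 iEV and 4.96 in MB157R iEV, and no summit within 1 kb in the other 2 lists. In MB157 iSOX2, however, the peak whose summit belongs to its neighbour ZNF569 is 3664 bp wide and covers the TSS of ZNF570, so the promoter is inside a peak there. ZNF875 and ZNF570 were named for their high RBPJ folds in MB157 lists, so their direction was partly set by that choice. In the same cluster ZNF567 had 6.0, 13.9, 15.4 and 13.1 and so did not share their order. Genes of 1 cluster thus did not move as a block.

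Of the 11 genes listed for a known role, 5, 6, 7 and 6 were bound in the 4 RBPJ lists. These are 45.5%, 54.5%, 63.6% and 54.5%, beside 53.3%, 72.5%, 68.3% and 49.2% of all chromosome 19 ZNF genes and 38.0%, 50.4%, 56.1% and 43.0% of all protein-coding genes. ZNF91, which silences SVA elements, had RBPJ folds of 4.73, 7.16, 8.15 and 5.53, and 9.12 for SOX2 in MB157R iEV. ZNF93, which silences LINE-1 elements, had 4.42, 4.01, 6.94 and 4.21, and 7.66 for SOX2. ZNF274, which binds the 3′ ends of other ZNF genes and recruits TRIM28 there, had 4.61, 6.26, 9.35 and 11.3, with no SOX2 summit. These 3 genes had a summit in each of the 4 RBPJ lists. ZNF473, a factor in histone mRNA processing that shares its promoter region with VRK3, had 3.51 in MB157 iSOX2, 8.79 in MB157R iEV, 5.99 in MB157R iN1-ICD and no summit in MB157 iEV. ZNF224 was called in 3 RBPJ lists with folds of 4.22 to 6.38, ZNF649 and ZNF296 in the MB157R lists only, and ZNF536 in the MB157 lists only. ZNF331, ZNF350 and ZNF541 had no summit in any list.

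A second list holds 8 genes whose promoters are known to be methylated in carcinomas. In both MB157 RBPJ lists 5 of 8 were bound, 62.5%, and in both MB157R lists 0 of 8. Of all protein-coding genes 38.0% and 50.4% were bound in the MB157 lists and 56.1% and 43.0% in the MB157R lists. RBPJ in both MB157 lists and neither MB157R list was found at 2.71% of all genes and at 10.4% of the ZNF genes. ZNF677 had folds of 12.8 in MB157 iEV and 19.4 in MB157 iSOX2, with 40 fragments (28.6 to 54.5) and 58 (44 to 75) at the summit. ZNF382 had 5.68 and 8.13, ZNF471 5.37 and 4.39, ZNF667 4.28 and 4.18, and ZNF582 3.85 and 4.50. All 5 also had an HA-SOX2 summit in MB157 iSOX2, with folds from 2.08 at ZNF582 to 5.20 at ZNF677. ZNF154, ZNF671 and ZNF132, which lie in cluster 10, had no summit in any list. DNA methylation was not measured here. ZNF382, ZNF471, ZNF582 and ZNF667 lie in clusters 6 and 9, where the expected background differs between the lines as given below, and ZNF677 lies in cluster 8, where it does not.

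**Figure D3:**
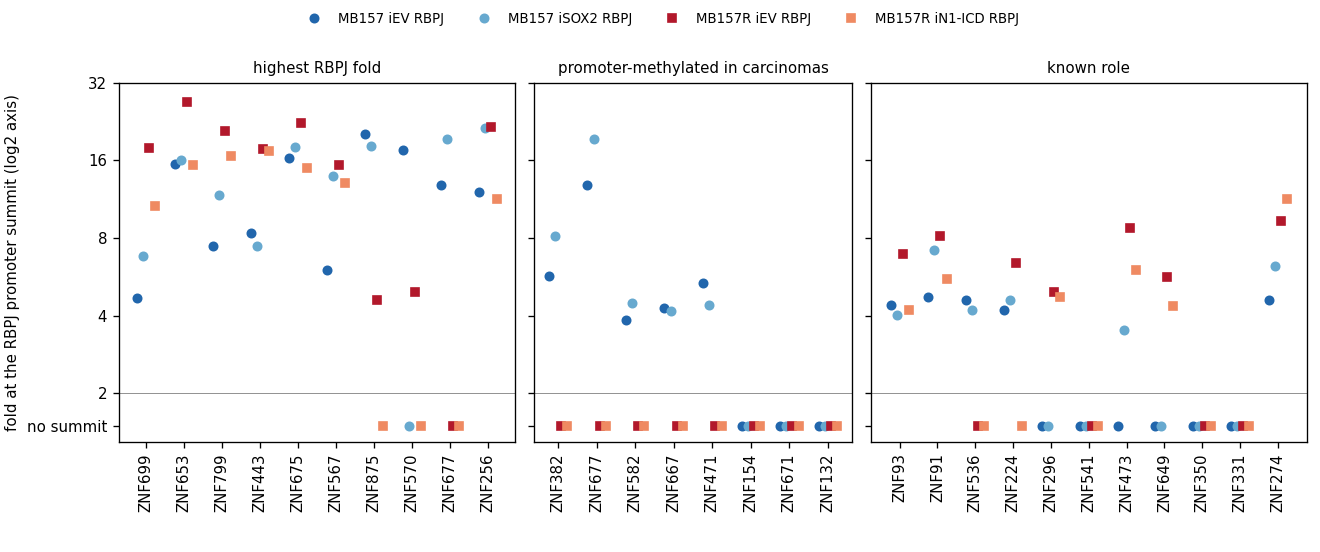
Fold at the RBPJ promoter summit (log2 axis) of the 10 genes with the 5 highest folds of any RBPJ list, the 8 genes known as promoter-methylated in carcinomas and the 11 genes with a known role, in the 4 pooled RBPJ lists. Points at the bottom had no summit within 1 kb. In the middle panel 5 of 8 genes have a summit in both MB157 lists and none in either MB157R list.

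The 5 genes of highest fold among those bound in both MB157R lists and neither MB157 list lie in clusters 7, 8 and 10. ZNF45 had folds of 10.3 (iEV) and 5.45 (iN1-ICD), ZNF230 7.23 and 4.36, ZNF525 7.09 and 6.17, ZNF530 6.92 and 4.24, and ZNF226 6.73 and 4.56. Of the 14 genes with this pattern, 13 lie in clusters 7, 8 and 10 and 1 in no cluster. Of the 25 genes with the opposite pattern, 13 lie in clusters 5, 6 and 9, 7 in clusters 1 to 4, 4 in clusters 7, 8 and 10, and 1 in no cluster. ZNF730 in cluster 4 is one of them, with 9.30 and 13.8, ZNF569 in cluster 6 had 8.28 and 10.3, and ZNF880 in cluster 8 had 5.76 and 8.89. Of all 240 ZNF genes, 103 lie in clusters 7, 8 and 10, 45 in clusters 5, 6 and 9, 75 in clusters 2 to 4, 5 in cluster 1 and 12 in no cluster. The direction of the difference between the lines thus went with the position on the chromosome.

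The share of bound genes by cluster shows the same. In MB157 iEV cells RBPJ was at 87.5% of the 24 genes of cluster 6, 84.0% of the 25 of cluster 3 and 68.8% of the 16 of cluster 9. It was at 26.1% of the 23 genes of cluster 7, 25.6% of the 39 of cluster 8 and 39.0% of the 41 of cluster 10. In MB157R iEV cells clusters 6 and 9 were at 58.3% and 56.2%, and clusters 7, 8 and 10 at 78.3%, 53.8% and 82.9%. Cluster 3 was high in both lines, with 92.0% and 84.0% in the iEV and iN1-ICD lists of MB157R. HA-SOX2 in MB157 iSOX2 followed the MB157 order, with 87.5% in cluster 6, 81.2% in cluster 9 and 34.1% in cluster 10. From MB157 iEV to MB157R iEV, RBPJ at the other genes went from 87.5% to 50.0% of 8 in cluster 6. It went from 28.6% to 71.4% of 14 in cluster 7 and from 12.5% to 62.5% of 24 in cluster 10. In cluster 8 it went from 20.0% to 26.7% of 15, and in cluster 9 it stayed at 21.7% of 23. In clusters 6, 7 and 10 the difference between the lines was therefore not particular to ZNF genes.

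The expected background at the peaks moved with the ZNF gene shares of the clusters, more closely in the MB157 lists than in the MB157R lists. It is computed by the peak caller from the input, and it was taken here as the median over the peaks of a cluster, divided by the genome background of the list. In MB157 iEV it was 2.29 in cluster 5, 2.46 in cluster 6 and 2.52 in cluster 9, between 1.52 and 1.74 in clusters 2 to 4, and between 1.00 and 1.03 in clusters 1, 7, 8 and 10. In MB157R iEV it was 1.33 to 1.62 in clusters 1 to 4 and 1.00 to 1.12 in clusters 5 to 10. Its part in the shares was not tested. Over the 10 clusters the share in MB157 iEV and this ratio had a Pearson's r of 0.845 and a Spearman's rho of 0.767, given as a description of regions that share the same libraries. For RBPJ in MB157 iSOX2 these were 0.753 and 0.738, and for HA-SOX2 0.833 and 0.853. For RBPJ in MB157R they were 0.472 and 0.63 (iEV) and 0.545 and 0.415 (iN1-ICD). For SOX2 in MB157R iEV they were 0.194 and 0.222.

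The comparison with other genes was therefore also made inside the clusters, with regions grouped by background after the values had been seen. In clusters 5, 6 and 9, RBPJ in MB157 iEV was at 36 of 45 ZNF genes, 80.0% (65.4 to 90.4), and at 12 of 31 other genes between them, 38.7% (21.8 to 57.8). In cluster 6 alone it was at 87.5% of both sets, 21 of 24 ZNF genes and 7 of 8 others. In cluster 9 it was at 68.8% of 16 ZNF genes and 21.7% of 23 others, and cluster 5 holds no other genes. In clusters 1, 7, 8 and 10, it was at 30.6% (22.1 to 40.2) of 108 ZNF genes and 18.9% (9.44 to 32) of 53 other genes. In MB157R iEV, clusters 1, 7, 8 and 10 gave 71.3% (61.8 to 79.6) and 54.7% (40.4 to 68.4). The ZNF genes were higher in each of these groups of clusters, though not in clusters 6 and 7 taken alone in MB157 iEV. In cluster 7 RBPJ was at 26.1% of 23 ZNF genes and 28.6% of 14 others in that list. In clusters 1, 7, 8 and 10 the intervals of both iEV lists overlap. RBPJ in MB157 iSOX2 had 60.2% (50.3 to 69.5) and 34.0% (21.5 to 48.3) there, which do not. SOX2 in MB157R iEV gave 19.4% and 22.6% in clusters 1, 7, 8 and 10, so the ZNF genes did not exceed their neighbours there. SOX2 was most frequent in clusters 2 to 4, with 52.0% (40.2 to 63.7) of 75 ZNF genes and 29.0% (14.2 to 48.0) of 31 others. HA-SOX2 had 84.4% and 29.0% in clusters 5, 6 and 9, 73.3% and 35.5% in clusters 2 to 4, and 35.2% and 24.5% in clusters 1, 7, 8 and 10. In cluster 6 alone HA-SOX2 was at 87.5% of both sets, as was RBPJ in MB157 iSOX2.

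**Figure D4:**
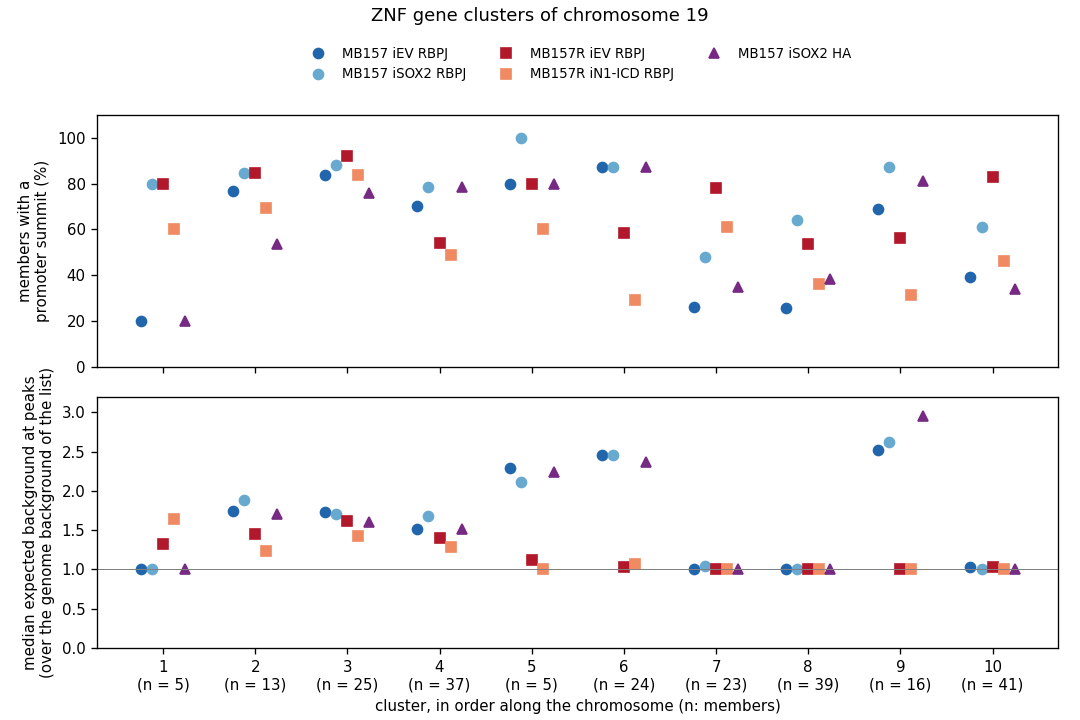
Upper panel, share of the ZNF genes of each cluster with a promoter summit in the 4 RBPJ lists and the HA-SOX2 list. Lower panel, median expected background at the peaks of the cluster over the genome background of the list. Clusters 5, 6 and 9 have a background of 2.11 to 2.96 in the MB157 lists and 1.00 to 1.12 in the MB157R lists.

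Pairs of lists were then compared gene by gene. Of the 128 ZNF genes with RBPJ in MB157 iEV, 123 also had it in MB157 iSOX2, 96.1% (91.1 to 98.7). It was found only with SOX2 induced at 51 genes, 21.2% of the ZNF genes, against 16.2% of the other chromosome 19 genes. Among the other chromosome 19 genes 88.0% (84.7 to 90.8) of those in the first list were in the second. Between the lines, 102 ZNF genes had RBPJ in both iEV lists, 26 in MB157 only and 62 in MB157R only. The last 2 are 10.8% and 25.8%, against 6.07% and 21.9% of the other chromosome 19 genes. With lists of equal length the direction turned, with 79 genes in both of 128 in MB157 and 116 in MB157R. The other chromosome 19 genes were then about level, with 303 in both of 459 in MB157 and 463 in MB157R. With N1-ICD induced in MB157R, 116 of 164 kept a summit, 70.7% (63.1 to 77.6), 48 lacked one and 2 were called only there. The other chromosome 19 genes had 70.8%, so RBPJ was called less often with N1-ICD at ZNF genes and other genes alike.

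The 67 ZNF genes with SOX2 in MB157R iEV all lacked a SOX2 summit in MB157R iN1-ICD, as did 197 of the 199 other genes. Of these 67, 59 had HA-SOX2 in MB157 iSOX2, 88.1% (77.8 to 94.7), against 57.8% (50.6 to 64.7) of the other chromosome 19 genes with SOX2. With lists of equal length these shares were 8.11%, 3 of 37 genes, and 6.10%, so the overlap and the gap both rest on the weaker peaks of the long HA-SOX2 list. At full length HA-SOX2 was at 75 more, so the 59 make up 44% of its ZNF genes.

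SOX2 at ZNF genes was rarely without RBPJ. Of the 67 with SOX2 in MB157R iEV, 64 had RBPJ in the same cells, 95.5%, beside 94.0% among the other chromosome 19 genes. In 62 of the 64 the summits were less than 500 bp apart, 96.9%. The median distance over the 64 was 153 bp. The other chromosome 19 genes with both had 84.0% and 172 bp. RBPJ and SOX2 together were at 26.7% (21.2 to 32.7) of the ZNF genes and 15.1% (13.2 to 17.3) of the other chromosome 19 genes. In MB157 iSOX2, RBPJ and HA-SOX2 together were at 124 genes, 51.7% (45.1 to 58.1), against 19.7% (17.5 to 22.0). Of these 124, 98 had summits less than 500 bp apart, 79.0%, and the median distance was 197 bp. The other chromosome 19 genes with both had 83.5% and 147 bp, so close spacing was not more frequent at ZNF genes there. With SOX2 or HA-SOX2 but RBPJ in no list there were 3 ZNF genes, 1.25%, beside 1.29% of the other chromosome 19 genes and 2.74% of all genes, so this pattern was at its background. The 3 are named after their values were seen. All had HA-SOX2 alone, with folds of 14.2 at ZNF486, at a summit at -954 bases, 4.63 at ZNF888 and 3.39 at ZNF444.

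The highest SOX2 fold in MB157R iEV was 16 at ZNF304, a KRAB gene whose protein was described as a repressor of the INK4-ARF locus. Its RBPJ folds were 4.99, 4.01 and 7.67 in the first 3 RBPJ lists, and HA-SOX2 had 7.37. ZNF358 followed with 11.5 and HA-SOX2 of 7.70, at summits 676 and 703 bases downstream of the TSS, then ZNF43 with 10.8, ZNF506 with 9.20 and ZNF91. For HA-SOX2, ZNF136 had the highest fold, 20.4 with 119 fragments (98.6 to 142) at a summit 770 bases downstream, followed by ZNF565 with 17.3 at -898 bases. The 3 highest HA-SOX2 folds, ZNF486 included, thus lay over 500 bp from the TSS. Of the 5 highest SOX2 folds in MB157R iEV only ZNF358 did, and those of ZNF304, ZNF43, ZNF506 and ZNF91 were at -87, 67, 3 and -9 bases. In all 6 lists with summits, 45 genes were bound, 18.8%, against 5.42% of the other chromosome 19 genes. By their lowest fold, ZNF443 led these with at least 7.06 in every list, followed by ZNF426 with 5.95, ZNF428 with 5.76, ZNF254 with 4.80 and ZNF43 with 4.75.

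RBPJ summits of the ZNF genes lay closer to the TSS than those of the other genes, and in 3 of the 4 lists more of them were downstream than upstream, from 56.7% to 67.2%. In MB157 iSOX2 the median position was 126 bases downstream, with quartiles of -38.5 and 255, against -2.50 bases at the other genes, with quartiles of -309 and 287. In MB157R iEV 73.8% of the ZNF summits lay within 250 bp of the TSS, against 56.2% at the other genes. In MB157R iN1-ICD these were 75.4% and 50.0%, and for SOX2 in MB157R iEV 76.1% and 51.8%. The annotated TSS is the end of the gene record, so genes with several starts widen these values.

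**Figure D5:**
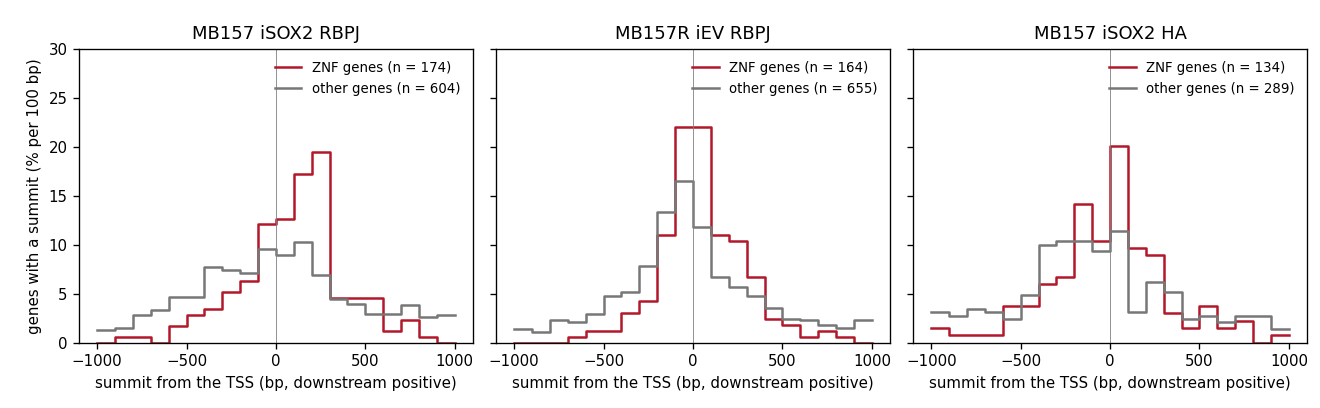
Distance of the highest promoter summit from the TSS, in percent of the bound genes per 100 bp, for the ZNF genes and the other genes of chromosome 19 in 3 lists. Positive distances are downstream. The ZNF genes are concentrated near the TSS, with a median of 126 bp for RBPJ in MB157 iSOX2 and 6.0 bp for HA-SOX2.

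Promoter composition differed between the sets. CpG observed over expected in the 500 bp around the TSS had a median of 0.741 at the ZNF genes and 0.674 at the other chromosome 19 genes, with GC contents of 59.5% and 63.1%. Under 0.4 were 10.4% of the ZNF genes and 30.2% of the others, and such genes were seldom bound, with RBPJ in MB157R iEV at 20.0% of 25 and 13.9% of 373. Between 0.4 and 0.6, RBPJ was at 64.6% (49.5 to 77.8) of 48 ZNF genes and 39.0% (31.5 to 46.9) of 164 others in that list. At 0.8 or more the order turned, with 73.5% (62.7 to 82.6) of 83 ZNF genes and 84.1% (80.2 to 87.5) of 415 others in MB157R iEV, and 49.4% against 62.2% in MB157R iN1-ICD. In MB157 iEV the last class gave 54.2% and 56.6%. In MB157 iSOX2 it gave 78.3% (67.9 to 86.6) and 74.7% (70.2 to 78.8). The higher RBPJ share of the ZNF genes was therefore clearest between 0.4 and 0.6, where the intervals of 3 RBPJ lists do not overlap, and it was not seen in the highest class for the iEV and iN1-ICD lists.

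For HA-SOX2 the ZNF genes were higher in each of the 4 classes. The shares were 36.0% against 7.77% under 0.4 and 68.8% against 18.9% between 0.4 and 0.6. At 0.8 or more they were 50.6% (39.4 to 61.8) against 33.7% (29.2 to 38.5). SOX2 in MB157R iEV was at 47.9% (33.3 to 62.8) of the ZNF genes between 0.4 and 0.6 and at 19.3% (11.4 to 29.4) of those at 0.8 or more, against 12.8% and 23.1% of the others. Many genes of the middle class lie in cluster 4, whose median was 0.469.

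Motifs were counted on both strands in the RefSeq promoter window, 250 bases before to 50 after the start on GRCh38.p14, which was found for 210 of the 240 genes. The ETS motif CCGGAAG was in 44.3% (37.5 to 51.3) of them, in 13.5% of 957 other chromosome 19 promoters and in 14.4% of 15316 promoters of protein-coding genes. The CCAAT box was in 52.9% (45.9 to 59.8), 37.9% and 36.6%. The RBPJ motif (CGTGGGAA, TGTGGGAA, CGTGAGAA or TGTGAGAA) was in 9.05% (5.54 to 13.8), 4.6% and 3.79%, and the SOX motif (AACAAAG or else AACAATG, or the same with a first base of T, TACAAAG or else TACAATG) in 7.62%, 5.12% and 8.99%. The E-box CACGTG was less frequent, in 3.81%, 8.88% and 8.88%. ETS and CCAAT letters were the most frequent of those searched. ZNF genes of other chromosomes had 37.1% (30.3 to 44.3) and 44.3% (37.2 to 51.6) for them, with intervals that overlap those of chromosome 19. Shares for the NRF1 motif GCATGCGC, the YY1 motif AAGATGGC, the CRE TGACGTCA, the AP-1 motif (TGACTCA and also TGAGTCA) and the ZNF143 motif ACTACAA were between 2.38% and 6.19%.

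With the RBPJ motif in that window 16 of 19 ZNF genes had RBPJ in MB157R iEV, 84.2%, and without it 131 of 191, 68.6%. The other chromosome 19 genes went the opposite way in that list, with 43.2% of 44 and 55.0% of 913. In MB157 iEV the ZNF genes had 73.7% and 53.9%, and the other genes 45.5% and 38.3%. Within 100 bp of the summit the RBPJ motif was found at 18.8% (12.4 to 26.6) of the 128 ZNF genes in MB157 iEV and at 13.5% (10.5 to 17.0) of the 459 other genes, and in MB157R iEV at 9.76% and 9.16%. Most RBPJ summits at ZNF genes therefore had none of these letters. The SOX motif was within 100 bp of the HA-SOX2 summit at 17.2% (11.2 to 24.6) of the ZNF genes and 16.6% of the others. At the SOX2 summits of MB157R iEV it was at 11.9% and 14.6%, and the CCAAT box there at 47.8% (35.4 to 60.3) and 26.1% (20.2 to 32.8).

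Genes with and without the KRAB box had like shares, with overlapping intervals. RBPJ was at 53.2% of the 201 KRAB genes and 53.8% of the 39 others in MB157 iEV, and at 66.7% (59.7 to 73.1) and 76.9% (60.7 to 88.9) in MB157R iEV. HA-SOX2 had 55.7% and 56.4%. Genes with at least 15 fingers had 64.3% for RBPJ in MB157R iEV and those with fewer 70.0%.

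For 43 genes another protein-coding TSS lay within 1 kb, on the opposite strand for 18 and on the same strand for 27. RBPJ in MB157R iEV was at 90.7% (77.9 to 97.4) of these 43 and at 63.5% (56.3 to 70.2) of the other 197. SOX2 had 20.9% and 29.4%. Among the other chromosome 19 genes, RBPJ in MB157R iEV was at 44.7% of the 949 with a lone TSS and at 53.0% of all 1236. The lower RBPJ share at lone TSSs was therefore not particular to ZNF genes. SOX2 in MB157R iEV was at 12.8% and 16.1% of these 2 sets of other genes. Where another TSS lies within 1 kb, a summit cannot be assigned to 1 of the genes. This holds for ZNF653, ZNF443, ZNF382 and ZNF473, named above.

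The bodies of the ZNF genes held few summits. Beyond 1 kb of the TSS there were 11.1 RBPJ summits per Mb in MB157R iEV, against 36.3 per Mb of the other chromosome 19 genes, and 10.3 against 34.6 in MB157 iEV. For HA-SOX2 the densities were 26.7 and 36.6 per Mb. The last exon, which in most of these genes encodes all the fingers, held an RBPJ summit in 3.33% of the genes in MB157R iEV and an HA-SOX2 summit in 10.4%. The other genes had 3.67% and 3.08%, with last exons of a median of 0.739 kb beside 3.35 kb at the ZNF genes. In MB157 iSOX2 RBPJ was in the last exon of 9.58% of the ZNF genes and 4.67% of the others, so the order of the sets was not the same in every list.

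The proteins with which KRAB zinc finger proteins work are encoded elsewhere in the genome, and 19 such genes were listed. RBPJ was at the promoters of 10, 13, 16 and 12 of them in the 4 lists, SOX2 in MB157R iEV was at 7 and HA-SOX2 at 10. These are 52.6%, 68.4%, 84.2%, 63.2%, 36.8% and 52.6%, beside 38.0%, 50.4%, 56.1%, 43.0%, 21.8% and 34.0% of all protein-coding genes. TRIM28, the corepressor that KRAB domains bind, lies beyond the last ZNF cluster of chromosome 19 and had RBPJ only in MB157R, with folds of 5.15 and 4.33, and SOX2 with 4.11. SETDB1, its histone methyltransferase, had RBPJ folds of 3.97, 4.89, 6.65 and 3.63. MPHOSPH8, a subunit of the silencing complex HUSH, had 11.6, 16.1, 18.1 and 12.7, and CBX3, an HP1 protein, 7.99, 10.0, 10.7 and 7.73. The highest were at DNMT1, the maintenance DNA methyltransferase, with 30.2, 37.0, 25.9 and 30. CHD3, UHRF1 and SUV39H1 had no summit in any list. CBX1, another HP1 protein, had the highest SOX2 fold of the list, 14.4 in MB157R iEV, and none of the 19 had SOX2 in MB157R iN1-ICD.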

How the data were processed

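Per the labels and the study's methods, the authors aligned paired-end reads to hg38 (BWA), merged the libraries of a group and called narrow peaks (MACS2) against the inputs. The deposited lists give for each peak a score, the fold (ratio of fragments at the summit to the expected background, each increased by 1), the −log10 p, the −log10 q and positions. The fold and −log10 p were used to recover the whole number of fragments at a summit and the expected background. The best whole number was compared with the next best by their misfit to the −log10 p. The ratio of these 2 misfits was at most 0.1 for at least 99.9764% of the peaks of every list. The check on simulated data returned the planted values. Read totals of the libraries were not used here. How reads shared by near-identical zinc finger genes were treated is not given in the sources used here.

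The autosomes and chromosome X were used. The members were counted as bound when a summit lay within 1 kb of the TSS, the 5′ end of the GENCODE 44 gene record on hg38. Shares have exact binomial (Clopper-Pearson) 95% intervals, fragments have exact Poisson intervals, and no test was made, since each group is 1 pooled list. KRAB and SCAN domains and fingers were found by pattern in the canonical transcript translated from hg38, in place of the planned RefSeq proteins. Motifs were searched on both strands within 100 bp of the summit of highest fold, in the RefSeq promoter window, and, for the 4 printed sequences, in the 250 bases upstream. Named were members with known roles or known methylation in carcinomas, the 5 of highest fold in each of 6 lists, the 5 with the highest minimum fold over these lists, and the 5 of highest fold called only in both lists of 1 line. The gene set, the lists of genes and the alternatives were chosen with earlier results of these data known. Alternatives were other distances, starts, thresholds and list lengths. Scripts ran in Python 3.11.15 with pandas 2.3.3, numpy 2.4.6, matplotlib 3.10.9 and scipy 1.17.1.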

Additional observations from a re-analysis of the deposited data

How the results depend on the processing

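Each group is 1 pooled peak list, so leaving out a library was not possible. No paired analysis was possible because the deposited lists hold no values per replicate. Of 128 recomputed values, 42 moved beyond the exact 95% interval of the first value. The share of ZNF genes was above that of the other chromosome 19 genes in 58 of 60 combinations of 10 settings and 6 lists. The exceptions were RBPJ in MB157R iN1-ICD within 5 kb, 52.1% against 55.1%, and SOX2 in MB157R iEV in the clusters without raised background, below. Fragment counts were low, with 15 to 24 at the median summit, and near-identical paralogs may share reads.

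Values are shares of ZNF genes in percent. At the canonical transcript's start RBPJ was 78.3 in MB157 iSOX2 and 75.8 in MB157R iEV. At any annotated start the 4 RBPJ lists, in the order of the report, gave 61.7, 80.4, 77.5 and 57.5, and HA-SOX2 62.9. With −log10 q of at least 5 they gave 37.5, 55.0, 55.8 and 29.6, SOX2 in MB157R iEV 16.2 and HA-SOX2 39.2. Lists of equal length gave 65.4, 48.3 and 34.2 for the last 3 RBPJ lists, 15.4 for SOX2 and 2.50 for HA-SOX2. Where the peak had to cover the TSS, the RBPJ lists of MB157 gave 38.3 (iEV) and 55.0 (iSOX2), that of MB157R iN1-ICD 36.7, SOX2 20.4 and HA-SOX2 44.2. Within 500 bp RBPJ was 65.0 in MB157 iSOX2 and HA-SOX2 47.5, and within 5 kb HA-SOX2 was 65.0. In clusters 7, 8 and 10 alone, a setting chosen after seeing the data, RBPJ was 31.1 in MB157 iEV and 59.2 in MB157 iSOX2, HA-SOX2 35.9, and SOX2 in MB157R iEV 20.4 against 22.6 of the other genes. Counting symbols with a letter as members, also chosen after seeing the data, moved no share beyond its interval.

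Of genes with RBPJ in MB157 iEV, the share also in MB157R iEV was 61.7 with equal lengths and 70.0 with the stricter q, and that in MB157 iSOX2 90.2 with the TSS covered and 90.6 within 500 bp. Of genes with RBPJ in MB157R iEV, the share in MB157R iN1-ICD was 61.2, 51.5 and 55.9 with equal lengths, the stricter q and the TSS covered. Of genes with SOX2 in MB157R iEV, the share with HA-SOX2 was 8.11 with equal lengths and 77.4 within 500 bp. RBPJ and HA-SOX2 less than 500 bp apart were at 40.8 in MB157 iSOX2. Within 50 bp of the summit the RBPJ motif was at 10.9 in MB157 iEV and the SOX motif at 10.4 for HA-SOX2. The causes were not tested.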
